A study of Mus musculus with 2 samples.

Results

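Inhibitory signalling through GABA and glycine was followed through 25 named genes, all of them found among the 32285 genes of the count matrices. These genes were chosen with earlier results of these data known. They make, package and break down GABA, form GABA-A, GABA-B and glycine receptors and the scaffold below them, and move chloride across the membrane. Nuclei came from the hippocampus of 8-month-old mice. The first group, 5XFAD x MR1 KO, carried the 5XFAD transgenes, which drive amyloid plaque formation, and is labelled as lacking MR1, which displays small vitamin-derived antigens to MAIT cells, a class of innate-like T cells. The other group was 5XFAD. All mice therefore carried the amyloid transgenes, and each group was 1 library that pooled 1 female and 1 male mouse.

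GABA is made from glutamate in inhibitory neurons, loaded into vesicles and released onto GABA-A receptors, which are chloride channels built of several subunits, and onto GABA-B receptors, which act through G proteins. Which way chloride flows depends on the balance between a chloride importer and a chloride exporter. In the hippocampus, interneurons that differ in markers such as Sst, Pvalb and Lamp5 inhibit different parts of granule and pyramidal neurons, and receptor subunits differ between synaptic sites and sites outside synapses.

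The filters left 16780 nuclei, at a median of 2532 UMIs each (unique molecular identifiers, 1 per captured RNA molecule), in the library labelled MR1 knockout and 11653, at a median of 3749 UMIs, in the 5XFAD library. Cell classes were named from marker genes, so that each class name means nuclei that are like that type. Mr1 RNA went against the label, at 1.12 CPM (95% interval 0.861 to 1.44; 62 UMIs) in the library labelled MR1 knockout and 0.582 CPM (0.398 to 0.821; 32 UMIs) in the 5XFAD library. Reads from the 3′ end may lie outside a deleted part and so do not check the deletion itself. Whether the labels of the libraries were exchanged was not tested, and an exchange would turn round every ratio and direction given here. CPM is a gene's UMIs divided by all UMIs of the class and scaled to counts per mega-UMI. Nuclei were also assigned to the female or the male mouse of a library by Xist and Y-linked RNA, which placed 8718 and 3057 nuclei in the library labelled MR1 knockout and 5244 and 3273 in the 5XFAD library. The mice of a library shared a capture and are not replicates, so there was no test between the groups, and every interval here is 95% and covers counting error only. Genotype, capture, depth and dissection cannot be told apart in this design. Of the nuclei, 4 in the library labelled MR1 knockout and 1138 in the 5XFAD library were medium spiny neurons of the striatum by their markers, although the labelled tissue is hippocampus. Over the 9 classes striatal markers summed to 175 to 931 CPM in the library labelled MR1 knockout and 451 to 1147 CPM in the 5XFAD library, and choroid plexus markers to 702 to 3190 CPM and 237 to 640 CPM.

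The promoters of 5 members are shown: the 3 genes that make and package GABA, which mark interneurons and had ratios above 1 there, each within 1.5-fold, and Kctd12 and Gabrg3, whose ratios lay on opposite sides of 1 in the classes with enough UMIs. Each is a RefSeq window (build GRCm38.p6), 250 bases before to 50 bases after the gene start, 5′ to 3′ on the strand of the gene. The start is RefSeq's, and for Gad1 it lies inside the GENCODE span given below, downstream of the start of that span. The last bases of the Gabrg3 window were not found in a GENCODE transcript of that gene. Capitals mark matches on either strand to the GC box (GGGCGG), the CCAAT box (the letters of its name), the TATA box (TATAAA), the homeodomain core (TAATTA) or the cAMP response element (TGACGTCA), none of which overlap another kind in these windows.
Gad1, chr2:70561879-70562178, plus strand: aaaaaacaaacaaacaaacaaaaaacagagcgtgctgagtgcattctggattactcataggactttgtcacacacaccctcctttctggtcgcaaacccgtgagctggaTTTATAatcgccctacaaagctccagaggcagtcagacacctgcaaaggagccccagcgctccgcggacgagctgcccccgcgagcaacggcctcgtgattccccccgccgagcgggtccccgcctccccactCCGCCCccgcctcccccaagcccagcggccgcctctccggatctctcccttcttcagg
Gad2, chr2:22622077-22622376, plus strand: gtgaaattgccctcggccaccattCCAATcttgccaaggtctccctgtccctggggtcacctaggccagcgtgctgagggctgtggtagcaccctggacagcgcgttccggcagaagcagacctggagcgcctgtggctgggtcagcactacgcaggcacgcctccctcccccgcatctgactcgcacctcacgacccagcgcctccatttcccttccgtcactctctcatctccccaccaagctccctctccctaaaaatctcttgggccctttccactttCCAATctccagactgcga
Slc32a1, chr2:158610508-158610807, plus strand: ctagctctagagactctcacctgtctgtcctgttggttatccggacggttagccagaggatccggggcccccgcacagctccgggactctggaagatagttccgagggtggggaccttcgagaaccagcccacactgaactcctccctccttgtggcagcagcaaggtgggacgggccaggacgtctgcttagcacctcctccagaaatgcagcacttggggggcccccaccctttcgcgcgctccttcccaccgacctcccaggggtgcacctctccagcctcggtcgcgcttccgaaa
Kctd12, chr14:102982588-102982887, minus strand: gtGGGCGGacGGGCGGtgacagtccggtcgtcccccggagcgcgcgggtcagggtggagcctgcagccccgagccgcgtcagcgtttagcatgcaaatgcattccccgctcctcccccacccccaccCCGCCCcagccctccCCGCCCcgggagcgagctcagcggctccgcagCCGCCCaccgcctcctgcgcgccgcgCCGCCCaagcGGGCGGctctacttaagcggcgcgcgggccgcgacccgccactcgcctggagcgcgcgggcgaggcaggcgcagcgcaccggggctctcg
Gabrg3, chr7:57387166-57387465, minus strand: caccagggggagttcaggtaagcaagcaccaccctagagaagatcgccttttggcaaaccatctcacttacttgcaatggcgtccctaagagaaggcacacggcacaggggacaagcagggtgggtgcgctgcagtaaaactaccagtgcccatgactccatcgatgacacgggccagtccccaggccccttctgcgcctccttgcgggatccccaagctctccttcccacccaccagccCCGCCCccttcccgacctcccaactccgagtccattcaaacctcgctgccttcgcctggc

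Gad1, Gad2 and Slc32a1 shared none of these motifs. Gad1 had 1 TATA box and 1 GC box, Gad2 had 2 CCAAT boxes, and the Slc32a1 window had no match. Kctd12 had 7 GC boxes and 45 CpG dinucleotides in a window of 78.0% G and C, against a median of 52.7% over all 32851 RefSeq windows. Gabrg3 had 1 GC box. Of all windows, 35.7% held a GC box, 37.4% a CCAAT box, 13.6% a TATA box, 5.29% the homeodomain core and 1.79% the cAMP response element. A match describes the letters of these windows and is not a binding site. RefSeq windows were found for 21 of the 25 members.

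Over 9 classes, 225 pairs of a member and a class were possible, and 154 had at least 100 UMIs over both libraries. The ratio of CPM, MR1 knockout label over 5XFAD, lay within 1.5-fold in 142 pairs, reached 1.5 in 5 pairs and was at most 1/1.5 in 7 pairs. Of all genes, 2.87% to 10.9% by class were at least 1.5-fold higher and 0.917% to 6.96% lower. Staying within 1.5-fold is thus not particular to the members. The interval of the ratio lay above 1 in 32 pairs, below 1 in 34 and included 1 in 88. No share of all genes was computed for the intervals. With TMM scaling, which moved the ratios of a class by between -0.14 and 0.03 on the log2 scale, 4 pairs were higher and 10 lower by the same limits, and 25 of the 154 ratios changed side of 1, none of them over 1.10-fold from 1 on the main scale.

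The members that make and package GABA marked interneurons in both libraries. Gad1 (ENSMUSG00000070880, chr2:70553072-70602014, plus strand) and Gad2 (ENSMUSG00000026787, chr2:22622205-22693874, plus strand) encode the glutamate decarboxylases that make GABA, and Slc32a1 (ENSMUSG00000037771, chr2:158610767-158615748, plus strand) the vesicular GABA transporter. Gad1 was at 284 CPM in interneurons of the library labelled MR1 knockout and at 223 CPM in those of the 5XFAD library, 18.1 and 12.8 times its lowest class. All 3 were also higher in interneurons of the library labelled MR1 knockout, each by less than 1.5-fold.

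Gad1 stood at 284 CPM in the female and 287 CPM in the male mouse of the library labelled MR1 knockout, against 205 and 268 CPM in the 5XFAD mice, a ratio of 1.27 (1.18 to 1.37). For Gad2 the mice had 380 and 341 CPM with the MR1 knockout label and 272 and 276 CPM in 5XFAD, a ratio of 1.32 (1.23 to 1.41). Slc32a1 was at 164 and 124 CPM in the mice labelled MR1 knockout, against 100.5 and 115 CPM in the 5XFAD mice, a ratio of 1.39 (1.25 to 1.55). For each of the 3 genes both mice labelled MR1 knockout lay above both 5XFAD mice, and 26.9% of all genes in interneurons had that order. The male intervals included 1 for Gad1, at 1.07 (0.925 to 1.24), and for Slc32a1, at 1.08 (0.864 to 1.36). Per 1000 nuclei Gad1 was level, at 1140.4 UMIs with the MR1 knockout label and 1138 in 5XFAD. Over all 10488 genes measured in interneurons, 3.84% were at least 1.5-fold higher and 0.973% at least 1.5-fold lower, and the median log2 ratio was 0.08, against 0.14 for the 25 members. Abat, the mitochondrial transaminase that breaks GABA down, was at 118 and 122 CPM in the mice labelled MR1 knockout and 114 and 116 CPM in the 5XFAD mice, a ratio of 1.03 (0.92 to 1.15).

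The share of interneuron nuclei with a UMI pointed the same way once nuclei were thinned to 750 UMIs each, which left out 6 nuclei in the library labelled MR1 knockout and 1 in the 5XFAD library. Gad2 was found in 23.2% (21.2 to 25.3) of the nuclei of the library labelled MR1 knockout and 17.3% (14.9 to 19.9) of those of the 5XFAD library. Slc32a1 was found in 12.3% (10.7 to 13.9) and 7.32% (5.74 to 9.18) in the same order, whereas the intervals of Gad1 overlapped, at 19.3% (17.4 to 21.3) and 16.9% (14.5 to 19.4). In CA2/CA3 pyramidal neurons, which should lack Gad2, the shares were 1.56% and 0.866%. Before thinning the Gad2 shares were 62.2% and 63.2%, with median depths of 3310 and 4294 UMIs per nucleus.

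The levels of these genes were lower in every other class than in interneurons, in both libraries. The gap in CPM was smaller in glia. Slc32a1 in the 5XFAD library was at 56.9 CPM in oligodendrocytes and 51.7 CPM in microglia, against 106 CPM in interneurons. With the MR1 knockout label these levels were 22.7, 35.2 and 147 CPM. Between the libraries, Slc32a1 and Gad2 were past 1.5-fold lower with the MR1 knockout label in 3 classes of excitatory neurons, which should lack them. The Gad1 ratios outside interneurons lay on both sides of 1, from 0.899 in CA2/CA3 neurons to 1.16 (1.01 to 1.33) in granule neurons. Slc32a1 was at 10.3 CPM (48 UMIs) in CA1 pyramidal neurons of the library labelled MR1 knockout and 17.9 CPM (103 UMIs) in those of the 5XFAD library, a ratio of 0.577 (0.401 to 0.821). In CA2/CA3 pyramidal neurons it was at 5.15 CPM (44 UMIs) and 10.6 CPM (89 UMIs), a ratio of 0.484 (0.33 to 0.703). In subicular or cortical excitatory neurons Gad2 was at 14.3 CPM (41 UMIs) and 22 CPM (138 UMIs), a ratio of 0.653 (0.449 to 0.931). These 3 pairs are read as background and not as expression. Per 1000 nuclei, CA1 neurons held 34.5 Slc32a1 UMIs in the library labelled MR1 knockout and 88.6 in the 5XFAD library, and oligodendrocytes held 23.9 and 84.6, about as many. Beside them, striatal markers summed to 194 CPM in oligodendrocytes of the library labelled MR1 knockout and 535 CPM in those of the 5XFAD library, and their part in these ratios was not tested. They were the only members past 1.5-fold in CA1 neurons and in subicular or cortical neurons, where 4.04% and 4.44% of all genes were higher and 0.997% and 1.78% lower.

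Of the interneurons, 9 nuclei in the library labelled MR1 knockout and 32 in the 5XFAD library stayed unnamed. The others fell into 4 types, named by Sst, by Pvalb, by Lamp5, and by Adarb2 without Lamp5, with 474, 336, 315 and 511 nuclei in the library labelled MR1 knockout and 244, 276, 144 and 247 in the 5XFAD library. Gad1 and Gad2 were highest in Lamp5 interneurons in both libraries, at 526 and 698 CPM with the MR1 knockout label and 401 and 550 CPM in 5XFAD. Gad1 was higher in the library labelled MR1 knockout by 1.33-fold in Pvalb, 1.31-fold in Lamp5 and 1.30-fold in Adarb2 interneurons, and by 1.07-fold in Sst interneurons, at 173 and 162 CPM. The mice overlapped in Lamp5, Adarb2 and Sst interneurons. The Gad1 ratios there were 1.43, 1.30 and 1.23 in females and 0.992, 0.928 and 0.961 in males. In Pvalb interneurons they were 1.48 and 1.16, and the male interval (0.875 to 1.54) included 1. In Sst interneurons Slc32a1 was at 206 CPM in the female and 138 CPM in the male mouse labelled MR1 knockout, against 106 and 137 CPM in the 5XFAD mice, a ratio of 1.52 (1.26 to 1.85) that rests on the females. In the other types its ratio was between 1.25 and 1.40. Among all genes measured in Sst interneurons, 5.88% were at least 1.5-fold higher and 1.93% lower, and 3 members were higher and 1 lower. In Adarb2 interneurons 2 members were higher and none lower, against 4.42% and 1.17% of genes, and no member passed 1.5-fold in Pvalb interneurons (3.58% and 1.82% of genes) or in Lamp5 interneurons (3.81% and 1.84% of genes).

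**Figure D1:**
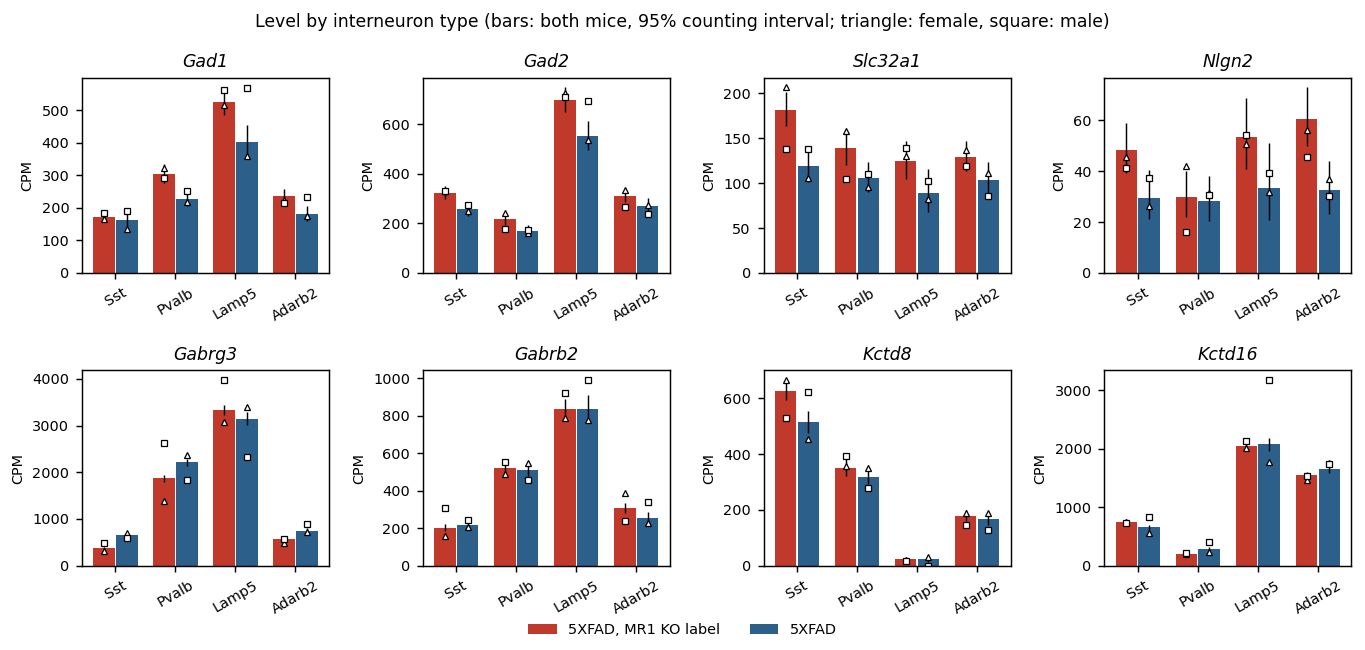
CPM of 8 members in the 4 interneuron types, with bars for the library labelled MR1 knockout left of bars for the 5XFAD library. Error bars are 95% counting intervals, triangles the female and squares the male mouse. Lamp5 interneurons were highest for Gad1, Gad2, Gabrg3, Gabrb2 and Kctd16 and lowest for Kctd8 in both libraries.

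GABA-A receptors combine alpha and beta subunits with a gamma or delta subunit, and the 9 members of this family differed more between cell classes than between libraries. Gabra2, Gabra4 and Gabrd were highest in dentate granule neurons and Gabra5 in CA2/CA3 neurons, in both libraries. Gabra5 encodes a subunit of receptors outside synapses on pyramidal neurons. It was at 210 CPM in CA2/CA3 and 181 CPM in CA1 neurons of the library labelled MR1 knockout, and at 191 and 161 CPM in those of the 5XFAD library. In interneurons, its lowest class, it was at 38.1 and 42.4 CPM. Gabra3 was highest in subicular or cortical neurons, at 127 CPM with the MR1 knockout label and 109 CPM in 5XFAD. Gabra4 and Gabrb1 overlap by 196 bases on opposite strands, and Gabrg1 and Gabra2 lie 115 kb apart on chromosome 5, as Gabrg3 and Gabra5 do 20.5 kb apart on chromosome 7. The strand setting of the counting is not given in the sources used here, so reads in the overlap cannot be assigned.

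Gabrb1, the beta-1 subunit, was highest in astrocytes, at 2561 CPM in the library labelled MR1 knockout and 2341 CPM in the 5XFAD library. In CA1 neurons it was at 1212 CPM in the female and 1049 CPM in the male mouse labelled MR1 knockout, against 862 and 896 CPM in the 5XFAD mice, a ratio of 1.22 (1.17 to 1.27) in which the mice did not overlap. Of all genes in CA1 neurons, 31.1% had that order of the mice. Per 1000 nuclei CA1 neurons held fewer Gabrb1 UMIs with the MR1 knockout label, at 3521 against 4277. In dentate and CA2/CA3 neurons the Gabrb1 ratios were 0.937 (0.909 to 0.965) and 0.972 (0.948 to 0.998). Within clusters 1 and 5 of the granule neurons, however, the ratio was 1.14 (1.06 to 1.24) and 1.05 (1.01 to 1.09). Within clusters 2 and 13 of the CA2/CA3 neurons it was 0.994 (0.961 to 1.03) and 1.05 (1.01 to 1.09). The mix of clusters thus entered these class ratios. Gabrb2 stayed between 0.898 and 1.04 in the 6 classes with enough UMIs. Of the alpha subunits, Gabra2 had its lowest ratio in CA2/CA3 neurons, at 0.801 (0.77 to 0.833), with 521 and 583 CPM in the mice labelled MR1 knockout and 713 and 569 CPM in the 5XFAD mice, so that the mice overlapped. Gabrg1, a gamma subunit of glia and some neurons, was highest in astrocytes, at 131 CPM (57 UMIs) and 101 CPM (54 UMIs), and had a ratio of 1.26 (1.00 to 1.58) in interneurons.

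Gabra3 (ENSMUSG00000031343, chrX:72432681-72656848, minus strand) was past 1.5-fold in dentate granule neurons, its lowest class. It was at 10.8 and 6.80 CPM in the mice labelled MR1 knockout, against 6.76 and 3.37 CPM in the 5XFAD mice, and over all nuclei of the class at 10.4 CPM (95 UMIs) and 6.25 CPM (36 UMIs), a ratio of 1.66 (1.12 to 2.51). The mice were ordered with the MR1 knockout label above 5XFAD, but the male labelled MR1 knockout and the female 5XFAD mouse were at the same level within counting error. Of all genes in granule neurons, 34.9% had that order of the mice. Per 1000 nuclei, 23.4 UMIs in the library labelled MR1 knockout and 24.5 in the 5XFAD library were near the 17.4 and 28.6 of oligodendrocytes, so this value too is read as background. Among all genes in this class 10.9% were at least 1.5-fold higher and 3.60% lower, the widest spread of the neuron classes, and 1 member was higher and 1 lower. Different clusters held most of the class. Cluster 1 had 3275 of the 4059 nuclei in the library labelled MR1 knockout and 367 of the 1471 in the 5XFAD library, and cluster 5 had 784 and 1104.

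Gabrd (ENSMUSG00000029054, chr4:155384980-155398112, minus strand) encodes the delta subunit of receptors outside synapses that carry tonic inhibition in granule cells and in some interneurons. In interneurons it was at 21.4 and 16.4 CPM in the mice labelled MR1 knockout, against 29.7 and 28.3 CPM in the 5XFAD mice, a ratio of 0.655 (0.512 to 0.838) on 128 and 142 UMIs. In granule neurons it was at 26.0 and 33.0 CPM in the mice labelled MR1 knockout and 45.2 and 48.9 CPM in the 5XFAD mice, a ratio of 0.687 (0.579 to 0.817). In both classes both mice labelled MR1 knockout lay below both 5XFAD mice, as did 12.4% of all genes in interneurons and 13.1% in granule neurons. Within the granule clusters the ratio was 0.531 in cluster 1 and 0.832 in cluster 5. In CA1 neurons it was level, at 9.90 and 9.91 CPM. Among interneurons Gabrd RNA was held mainly by Pvalb and Lamp5 nuclei, with 40.9 and 39.4 CPM in the library labelled MR1 knockout and 52.6 and 49.3 CPM in the 5XFAD library, against 2.46 and 5.30 CPM in Sst interneurons. Within these types the ratio did not reach 1.5-fold, at 0.779 (0.550 to 1.10) in Pvalb and 0.80 (0.495 to 1.31) in Lamp5 interneurons. Pvalb nuclei were 336 of 1645 interneurons in the library labelled MR1 knockout and 276 of 943 in the 5XFAD library, so the mix of types enters the ratio of the class. Striatal medium spiny neurons of the 5XFAD library had 81.0 CPM, and striatal markers summed to 636 CPM in interneurons of the library labelled MR1 knockout and 935 CPM in those of the 5XFAD library, with 0 of 12 higher. Per 1000 nuclei, interneurons held 77.8 and 151 Gabrd UMIs and oligodendrocytes 11.9 and 37.3. The part of striatal or free RNA in the ratio was not tested.

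Gabrg3 (ENSMUSG00000055026, chr7:56716465-57387188, minus strand) encodes the gamma-3 subunit and had its interval below 1 in all 7 classes with enough UMIs, with ratios from 0.284 in astrocytes to 0.916 (0.865 to 0.971) in CA1 neurons. The clusters of a class did not always share that direction. In CA2/CA3 neurons the ratio was 0.719 (0.673 to 0.768), but 1.15 (0.919 to 1.44) within cluster 2, with 1269 nuclei in the library labelled MR1 knockout and 750 in the 5XFAD library, and 0.899 (0.839 to 0.964) within cluster 13, with 402 and 406. The mix of these clusters thus entered the ratio of the class. In granule neurons it was at 42.1 and 97.1 CPM in the mice labelled MR1 knockout, against 145 and 132 CPM in the 5XFAD mice, a ratio of 0.485 (0.437 to 0.539). The ratio was 0.601 within cluster 1 and 0.649 within cluster 5. Both mice labelled MR1 knockout lay below both 5XFAD mice in cluster 5 but not in cluster 1. In Sst interneurons it was at 310 and 486 CPM in the mice labelled MR1 knockout and 704 and 580 CPM in the 5XFAD mice, a ratio of 0.581 (0.526 to 0.642). Over the whole granule class and in Sst interneurons the mice did not overlap. Of all genes in granule neurons, 13.1% had that order of the mice, and no such share was computed for Sst interneurons. After thinning, 4.51% (3.89 to 5.20) of granule nuclei of the library labelled MR1 knockout and 9.94% (8.46 to 11.6) of those of the 5XFAD library had a UMI of Gabrg3, with 1.69% and 2.35% in oligodendrocytes.

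The sexes did not give the same picture for Gabrg3. In interneurons it was at 1108 CPM in the female and 1676 CPM in the male mouse labelled MR1 knockout, against 1613 and 1234 CPM in the 5XFAD mice. The ratio was 0.687 in females and 1.36 in males, with a ratio of 0.863 (0.837 to 0.891) over all nuclei. Lamp5 interneurons, where it was highest, had 3342 CPM with the MR1 knockout label and 3148 CPM in 5XFAD, a ratio of 1.06 (1.01 to 1.12). The gene spans 671 kb, and long genes were lower in granule neurons of the library labelled MR1 knockout in general: the median log2 ratio was 0.31 over genes under 15 kb and -0.26 over genes of 500 kb or more. Against the median of genes of like length the Gabrg3 ratio in granule neurons was 0.583. Striatal medium spiny neurons of the 5XFAD library had 1903 CPM, and striatal markers summed to 290 CPM in granule neurons of the library labelled MR1 knockout and 451 CPM in those of the 5XFAD library. The part of either in the ratio was not tested.

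**Figure D2:**
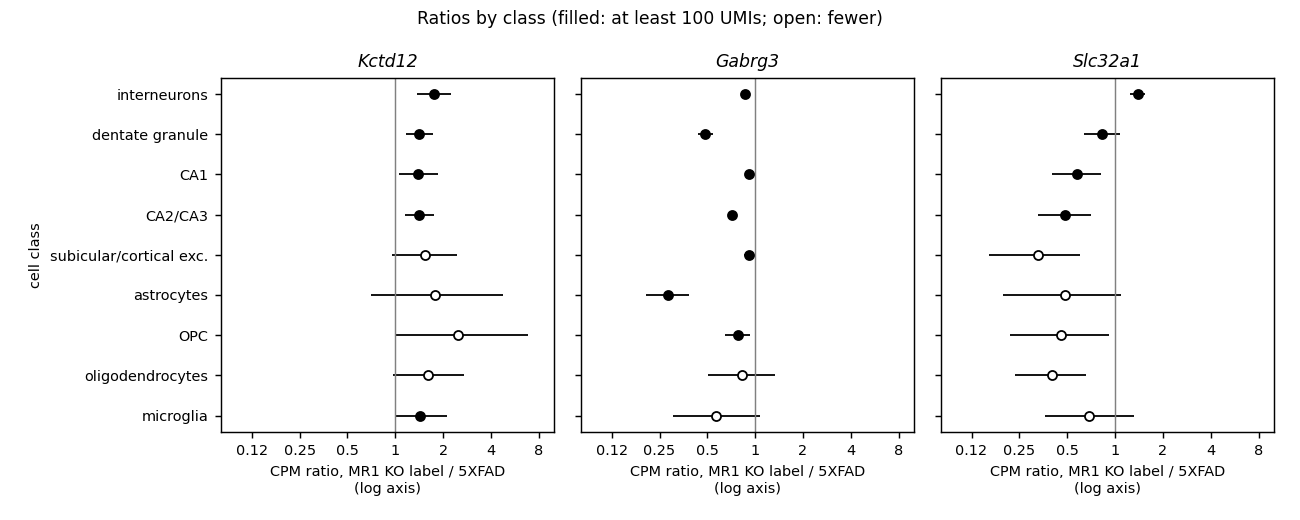
Ratio of CPM, MR1 knockout label over 5XFAD, of Kctd12, Gabrg3 and Slc32a1 by cell class on a log axis, with 95% counting intervals. Filled points have at least 100 UMIs and open points fewer. Filled points lay above 1 for Kctd12 and below 1 for Gabrg3 in every class, and Slc32a1 was above 1 in interneurons alone.

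GABA-B receptors pair the products of Gabbr1, which binds GABA, and Gabbr2, which reaches the cell surface and couples to G proteins, and KCTD proteins attach to Gabbr2 and set how quickly the response fades. Gabbr1 was at 226 and 223 CPM in interneurons of the mice labelled MR1 knockout, against 184 and 186 CPM in the 5XFAD mice, a ratio of 1.22 (1.12 to 1.33). In granule neurons it was at 229 and 190 CPM in the mice labelled MR1 knockout and 164 and 159 CPM in the 5XFAD mice, a ratio of 1.28 (1.19 to 1.39). The mice did not overlap in either class, though within granule cluster 1 the ratio was 0.986 (0.842 to 1.16) and within cluster 5 it was 1.17 (1.04 to 1.31). Of all genes, 26.9% in interneurons and 34.9% in granule neurons had that order of the mice. Per 1000 nuclei Gabbr1 was lower with the MR1 knockout label, at 916 against 950 UMIs in interneurons and 479 against 648 in granule neurons. Gabbr1 was above 1 in 6 of 9 classes, and in 5 with TMM scaling. Its partner was level in interneurons, at 271 CPM in both libraries, and in CA2/CA3 neurons, its highest class, at 400.0 and 395 CPM. Gabbr2 was lower in subicular or cortical neurons, at 198 and 219 CPM in the mice labelled MR1 knockout and 246 and 342 CPM in the 5XFAD mice, a ratio of 0.743 (0.676 to 0.816).

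Kctd12 (ENSMUSG00000098557, chr14:102976581-102982637, minus strand), the KCTD protein known for rapid desensitization of GABA-B responses, had a ratio above 1 in all 5 classes with enough UMIs, from 1.39 in CA1 neurons to 1.75 in interneurons, and in each of the 5 both mice labelled MR1 knockout lay above both 5XFAD mice. That order held for 26.9% of all genes in interneurons, 34.9% in granule neurons, 31.1% in CA1 neurons, 29.8% in CA2/CA3 neurons and 18.4% in microglia. In interneurons it was at 31.9 and 38.9 CPM in the mice labelled MR1 knockout (233 UMIs over the class), against 20.9 and 15.4 CPM in the 5XFAD mice (97 UMIs), a ratio of 1.75 (1.37 to 2.24). Adarb2 interneurons carried most of it, with 69.3 and 91.3 CPM in the mice labelled MR1 knockout and 38 and 15.2 CPM in the 5XFAD mice, a ratio of 2.18 (1.55 to 3.13). In CA2/CA3 neurons it was at 26.9 and 27.9 CPM in the mice labelled MR1 knockout and 18.8 and 15 CPM in the 5XFAD mice, a ratio of 1.41 (1.14 to 1.75). Granule neurons also had a ratio of 1.41 (1.17 to 1.72), which was 1.07 (0.71 to 1.67) in cluster 1 and 1.59 (1.21 to 2.07) in cluster 5.

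The level of Kctd12 was highest in microglia, at 160 CPM (123 UMIs) with the MR1 knockout label and 112 CPM (39 UMIs) in 5XFAD, a ratio of 1.43 (0.991 to 2.11). After thinning, a UMI of Kctd12 was found in 11.3% of microglia and 1.77% of interneurons of the library labelled MR1 knockout, and in 9.5% and 0.955% in the 5XFAD library. The gene is 6.06 kb long. The median log2 ratio of genes under 15 kb was 0.14 in interneurons, and against these genes the Kctd12 ratio was 1.58 in interneurons and 1.14 in granule neurons. Per 1000 nuclei, interneurons held 142 Kctd12 UMIs in the library labelled MR1 knockout and 103 in the 5XFAD library, and oligodendrocytes 41.2 and 36.1, but CA2/CA3 neurons held 130.5 and 130.6. In granule neurons the library labelled MR1 knockout held fewer, with 84.7 against 104 per 1000 nuclei, as in CA1 neurons, with 79.0 against 84.3, so that the direction above 1 does not hold per nucleus in those classes. Microglia held 164 and 160.5. The ratio of CPM in CA2/CA3 neurons thus came with 5109 and 7235 UMIs per nucleus on average and not with more Kctd12 UMIs per nucleus. The part of depth, gene length and free RNA in these ratios was not tested.

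Kctd8 and Kctd16 split the interneuron types between them, in the same order in both libraries. Kctd8 was highest in Sst interneurons, at 628 CPM with the MR1 knockout label and 514 CPM in 5XFAD, and lowest in Lamp5 interneurons, at 21.9 and 22.3 CPM. Kctd16 was highest in Lamp5 interneurons, at 2052 and 2075 CPM, and lowest in Pvalb interneurons, at 199 and 287 CPM. Among the 9 classes Kctd8 was at 331 and 293 CPM in interneurons and at 3.93 and 4.34 CPM in granule neurons, which had the highest Kctd16 level, at 1345 and 1390 CPM. In subicular or cortical neurons Kctd16 was lower, at 296 and 456 CPM in the mice labelled MR1 knockout and 499 and 570 CPM in the 5XFAD mice, a ratio of 0.718 (0.67 to 0.769). Kctd8 had a ratio of 1.41 (1.29 to 1.55) in that class, but the mice overlapped, with 224 and 334 CPM in the mice labelled MR1 knockout and 235 and 91.5 CPM in the 5XFAD mice.

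**Figure D3:**
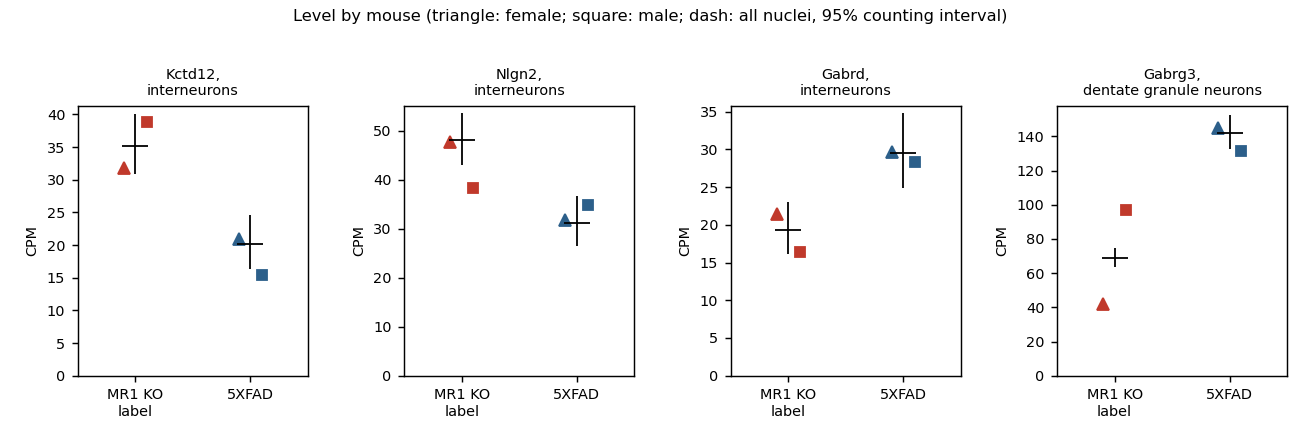
CPM of Kctd12, Nlgn2 and Gabrd in interneurons and of Gabrg3 in dentate granule neurons, by mouse, with the library labelled MR1 knockout left of the 5XFAD library. Triangles are female and squares male mice, and the dash with its line is the level over all nuclei with a 95% counting interval. In each panel the mice of the libraries do not overlap.

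Below the receptors, gephyrin, the product of Gphn, holds GABA-A and glycine receptors in place, and neuroligin-2, the product of Nlgn2, is the adhesion protein of inhibitory synapses. Nlgn2 (ENSMUSG00000051790, chr11:69823122-69837784, minus strand) was at 47.8 and 38.2 CPM in interneurons of the mice labelled MR1 knockout, against 31.7 and 34.8 CPM in the 5XFAD mice. The ratio was 1.54 (1.26 to 1.88) over all nuclei, 1.51 in females and 1.10 in males. In Adarb2 interneurons it was at 56.1 and 45.7 CPM in the mice labelled MR1 knockout and 36.9 and 30.3 CPM in the 5XFAD mice, a ratio of 1.87 (1.29 to 2.76), and in Sst interneurons the ratio was 1.63 (1.11 to 2.43). Nlgn2 was above 1 in all 5 classes measured, by 1.15 to 1.24-fold outside interneurons, with the interval clear of 1 in 2. Within granule clusters 1 and 5, however, the ratio was 0.915 (0.642 to 1.34) and 0.895 (0.656 to 1.21). The mix of clusters thus entered the ratio of the granule class. Against genes of like length the class ratios outside interneurons were 0.999 in granule, 1.03 in CA1, 1.10 in CA2/CA3 and 1.03 in subicular or cortical neurons. Per 1000 nuclei Nlgn2 was lower with the MR1 knockout label in these 4 classes, at 83.8 against 118 UMIs in granule, 119.9 against 155 in CA1, 139 against 163 in CA2/CA3 and 150.5 against 185 in subicular or cortical neurons, and higher in interneurons, at 193 against 159. Over whole classes the CPM of Gphn ran the other way, with ratios below 1 in 8 of 9 classes, in all 9 with TMM scaling, and the interval below 1 in 6. In interneurons it was at 548 and 541 CPM in the mice labelled MR1 knockout and 604 and 625 CPM in the 5XFAD mice, a ratio of 0.905 (0.862 to 0.95), and in granule neurons the ratio was 0.835 (0.798 to 0.873). Within granule clusters 1 and 5 the Gphn ratio was 1.12 (0.993 to 1.26) and 0.902 (0.846 to 0.960). Within CA2/CA3 clusters 2 and 13 it was 0.903 (0.861 to 0.948) and 1.02 (0.949 to 1.10). Nlgn2 is 14.7 kb and Gphn 458 kb long. In interneurons the Nlgn2 ratio against genes of like length was 1.40. The Gphn ratio against such genes was between 0.854 and 0.945 in the neuron classes and precursors. It was 1.01 in astrocytes, 1.09 in oligodendrocytes and 1.03 in microglia.

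**Figure D4:**
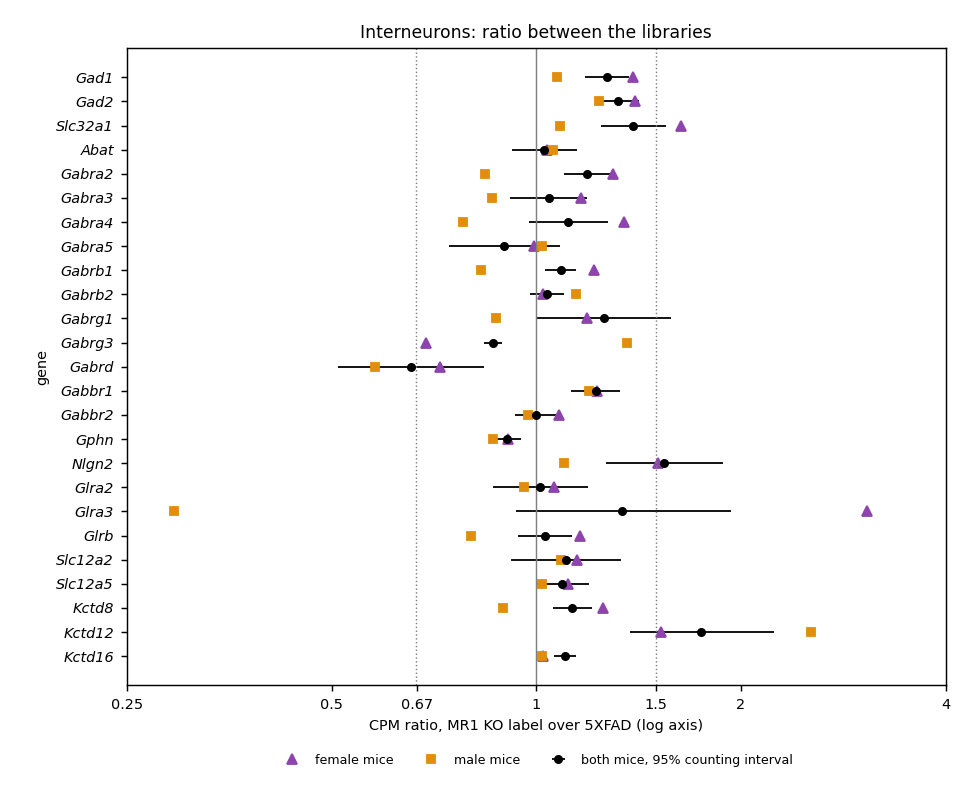
Ratio of CPM in interneurons, MR1 knockout label over 5XFAD, for the 25 members on a log axis with 95% counting intervals. Triangles are the ratio of the female and squares of the male mice, and dotted lines mark 1.5 and 1/1.5. Kctd12 and Nlgn2 lay beyond 1.5 and Gabrd below 1/1.5.

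Glycine receptors are chloride channels of alpha subunits (Glra2, Glra3) and the beta subunit that binds gephyrin (Glrb). Glrb was found in all classes, from 79.5 to 169 CPM in the library labelled MR1 knockout and from 71.7 to 195 CPM in the 5XFAD library. Per 1000 nuclei it was lowest in microglia, at 81.4 and 103 UMIs, and highest in subicular or cortical neurons, at 744 and 1006. Glra2 marked interneurons, at 55.6 and 54.9 CPM, and subicular or cortical neurons, at 52.1 and 63.5 CPM, where the mice ranged widely: 76.1 and 12.7 CPM in the mice labelled MR1 knockout and 34.6 and 112 CPM in the 5XFAD mice. Glra3 (ENSMUSG00000038257, chr8:55940460-56130070, plus strand) was past 1.5-fold in CA2/CA3 neurons, at 9.07 and 9.61 CPM in the mice labelled MR1 knockout, against 5.34 and 4.03 CPM in the 5XFAD mice. The ratio was 1.77 (1.19 to 2.66) on 74 and 41 UMIs, and the mice did not overlap. Of all genes in CA2/CA3 neurons, 29.8% had that order of the mice. The ratio was 1.70 (0.999 to 2.89) in females and 2.38 (1.02 to 6.42) in males. Per 1000 nuclei, CA2/CA3 neurons held 44.3 Glra3 UMIs in the library labelled MR1 knockout and 35.5 in the 5XFAD library, against 11.9 and 9.95 in oligodendrocytes. In this class 2.87% of all genes were at least 1.5-fold higher and 0.917% lower, and 1 member was higher and 1, Slc32a1 at background level, was lower.

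Neither chloride transporter passed 1.5-fold in a class with enough UMIs. Slc12a5 encodes KCC2, the neuronal chloride exporter, and stood at 187 and 164 CPM in interneurons of the mice labelled MR1 knockout and 168 and 161 CPM in those of the 5XFAD mice, a ratio of 1.09 (0.999 to 1.20). Its ratio was between 0.934 and 1.09 in the 5 neuron classes, and in glia it was 0.747 (0.564 to 0.985) in oligodendrocytes, 0.862 (0.577 to 1.29) in precursors and 0.921 (0.603 to 1.43) in microglia. Per 1000 nuclei, oligodendrocytes held 92.2 Slc12a5 UMIs in the library labelled MR1 knockout and 174 in the 5XFAD library. Microglia, the lowest class, held 92.1 and 140, and interneurons 741 and 860. The values in oligodendrocytes and microglia are read as background. Slc12a2 encodes NKCC1, the chloride importer, and was highest in oligodendrocytes, at 384 and 264 CPM in the mice labelled MR1 knockout and 388 and 513 CPM in the 5XFAD mice. The ratio there was 0.863 (0.752 to 0.99), 0.991 in females and 0.515 in males. A UMI of Slc12a2 was found in 23.8% (20.8 to 26.9) of the oligodendrocytes of the library labelled MR1 knockout and 27.7% (24.6 to 31.0) of those of the 5XFAD library after thinning, against 3.36% and 3.4% of interneurons.

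In glia, 3 pairs were past 1.5-fold, and in astrocytes a few nuclei held most of the 5XFAD UMIs. Astrocytes had Gabrg3 at 120 CPM (52 UMIs) in the library labelled MR1 knockout and 423 CPM (227 UMIs) in the 5XFAD library, a ratio of 0.284 (0.206 to 0.385). A single 5XFAD nucleus held 115 of the 227 UMIs, and nuclei assigned to mice gave 127 and 161 CPM with the MR1 knockout label and 230 and 136 CPM in 5XFAD, which overlapped. Kctd16 in astrocytes was at 132 and 73.1 CPM in the mice labelled MR1 knockout and 165 and 201 CPM in the 5XFAD mice, a ratio of 0.527 (0.365 to 0.751), and 5 of the 5XFAD nuclei held 80 of its 108 UMIs. Striatal markers summed to 376 CPM in astrocytes of the library labelled MR1 knockout and 1033 CPM in those of the 5XFAD library, and their part in these ratios was not tested. Of all genes in astrocytes, 6.37% were at least 1.5-fold higher and 6.96% lower, against none and 2 of the 9 members measured.

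Oligodendrocytes had Gabra2 at 115 and 102 CPM in the mice labelled MR1 knockout, against 34 and 68 CPM in the 5XFAD mice, a ratio of 1.74 (1.29 to 2.36) on 109 and 77 UMIs. This was the lowest class for Gabra2 in both libraries, and 6.49% (4.86 to 8.47) of thinned nuclei of the library labelled MR1 knockout and 3.66% (2.45 to 5.25) of those of the 5XFAD library had a UMI, against 7.90% and 6.79% of microglia. Per 1000 nuclei, oligodendrocytes held 118 and 95.8 Gabra2 UMIs in the same order, and microglia 148 and 202. The Gabra2 value in oligodendrocytes is thus also read as background. In oligodendrocytes 5.05% of all genes were higher and 1.98% lower, and 1 of the 12 members measured was higher. No member passed 1.5-fold in oligodendrocyte precursors, where 5.36% and 1.41% of genes did, or in microglia, where 6.0% and 4.25% did. Precursors had RNA of GABA-A and GABA-B members, with Gabrb1 at 415 and 454 CPM, Gabrg3 at 339 and 436 CPM and Kctd8 at 200.1 and 153 CPM, and the interval of the ratio lay below 1 for Gabrg3 and included 1 for the others.

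Over all kept nuclei, where cell composition adds to the level within cells, 2 members were past 1.5-fold higher and 3 lower, against 6.75% and 2.49% of all genes. Fewer cells of a type and less RNA per cell cannot be told apart there. Glra3 was at 44.5 and 8.45 CPM in the mice labelled MR1 knockout, against 8.55 and 13.7 CPM in the 5XFAD mice, a ratio of 3.02 (2.74 to 3.32) that came from the female labelled MR1 knockout. A cluster led by Otof and Smoc1, with 2317 nuclei in the library labelled MR1 knockout and 44 in the 5XFAD library, held 781 of its UMIs, at 70.5 CPM. A cluster led by Ano1 and Prdm16 held 471, at 147 CPM with the MR1 knockout label and 26.8 CPM in 5XFAD. Its nuclei were mainly from the female mouse labelled MR1 knockout (761) and from the male 5XFAD mouse (591). Kctd8, at 80.7 and 123 CPM, was at 652 CPM in the striatal medium spiny neurons of the 5XFAD library.

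The wider pathway lists held other genes around these members. In interneurons, 10 of 12 genes of GABA synthesis, storage, breakdown and uptake had enough UMIs, and none passed 1.5-fold, with a median log2 ratio of 0.17 against 0.08 for all genes. Of 12 measured GABA-A subunits 1 was lower, of 11 genes of the GABA-B complex and its potassium channels 1 was higher, and of 20 genes of the inhibitory scaffold 1 was higher, and these were the members Gabrd, Kctd12 and Nlgn2. Of 4 measured genes of glycine receptors and transport 1 was lower, and of 12 genes of chloride transport and its kinases none passed. In granule neurons 4 of 21 scaffold genes were higher and 1 lower, among them Gabarap and Gabarapl2, which encode short proteins that take part in receptor trafficking. Of all genes, 10.9% were at least 1.5-fold higher and 3.60% lower in granule neurons, and 3.84% and 0.973% in interneurons.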

How the data were processed

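RNA of nuclei from flash-frozen hippocampus was measured with 10x 3′ chemistry, per the labels' protocols. The deposited files hold raw counts, whole UMIs per gene and barcode, and the submitters' processing notes name Cell Ranger 7.0.0, Seurat and mm10. The sources used here do not name the annotation release, the strand setting or whether introns were counted. The matrices held 26212 barcodes and 85678909 UMIs in the library labelled MR1 knockout and 25238 barcodes and 106861726 UMIs in the 5XFAD library, with 182 barcodes in both.

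Nuclei with at least 500 genes and under 5% mitochondrial UMIs were kept, a limit that alone removed 8.92% and 35.8% of barcodes. Scrublet (scanpy 1.11.5) scored doublets, and the 21.5% and 20.9% with the highest scores were removed, at 0.8% per 1000 nuclei, since the automatic threshold marked 12.7% and 5.83%. Mixed clusters (706 and 540 nuclei) were left out. Leiden clustering (resolution 1.5, 2500 variable genes, 40 components, 20 neighbours) left out 107 genes, among them all members and pathway genes, and classes took names from at least 3 markers among the top 50 genes of a cluster. Unnamed clusters held 28.5% and 27.7% of nuclei, and these classes can differ from the study's own. Interneurons were clustered again at a resolution of 0.2. A nucleus was assigned to the female mouse by 2 or more Xist UMIs without Y-linked RNA, and to the male mouse by 1 or more Y-linked UMIs without Xist.

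UMIs were summed per class and library. CPM carries an exact Poisson, a ratio an exact conditional binomial and a share an exact binomial (Clopper-Pearson) 95% interval. PCR and capture effects are not covered. A member was called past the fold at 100 UMIs over both libraries and 1.5-fold, and values are given for members that reach 100 UMIs, first those past 1.5-fold. The median log2 ratio used a prior count of 0.5. TMM factors came from edgeR 4.0.16. Gene positions are from GENCODE M21 (GRCm38), matched for 32158 of 32285 IDs. The calculation was tested on simulated data. The members, gene lists and markers were chosen with earlier results of these data known.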

Additional observations from a re-analysis of the deposited data

Results flagged for a closer look

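In 8 pairs of a member and a class, the female and the male mice gave ratios of MR1 knockout label over 5XFAD on opposite sides of 1, with both counting intervals clear of 1. The difference between the sexes was not tested, since each value rests on 1 mouse per label. In dentate granule neurons Gabra2 had a ratio of 0.811 in females and 1.14 in males. In subicular or cortical excitatory neurons Gabra2 had 0.82 in females and 1.51 in males, and Glra2 had 2.2 in females and 0.114 in males. Gabrg3 had 0.687 in females and 1.36 in males in interneurons, and 0.578 and 1.23 in CA2/CA3 pyramidal neurons. In interneurons the ratios of females and males were 1.22 and 0.83 for Gabrb1, 3.07 and 0.294 for Glra3, and 1.16 and 0.801 for Glrb.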

How the results depend on the processing

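The 5 pairs higher and 7 lower by 1.5-fold among 154 depended on depth and on the mice. The higher count was 3 in male nuclei alone, 3 after thinning, 2 for the male labelled MR1 knockout against the female 5XFAD mouse, 8 for the female labelled MR1 knockout against the male 5XFAD mouse, 0 with UMIs per nucleus, 11 at a minimum of 50 UMIs, 21 with no minimum and 0 at 2-fold. The lower count was 4 in male nuclei, 4 for the male labelled MR1 knockout against the female 5XFAD mouse, 53 with UMIs per nucleus, 12 at 50 UMIs, 20 with no minimum and 3 at 2-fold. The higher and lower counts were 5 and 9 in female nuclei, 4 and 10 with TMM, 4 and 8 at 1000 genes or more, 6 and 5 under 1% mitochondrial UMIs, 6 and 6 without the 30% highest doublet scores, and 5 and 6 where both mice labelled MR1 knockout also had to lie beyond both 5XFAD mice. That order alone held on the higher side for 18.4% to 34.9% of all genes in the 5 classes where it was counted. On the lower side it held for 12.4% in interneurons and 13.1% in granule neurons. No share of all genes was computed for order and fold together. Of the 12 pairs, 1 (Slc32a1 in CA2/CA3 neurons) stayed past 1.5-fold and 8 stayed on their side of 1 in every alternative with a value. The others changed side once each: Gabra3 in granule neurons (0.956 with UMIs per nucleus), Gabrg3 in astrocytes (1.18 in males), Kctd16 in astrocytes (1.16 without the 30% highest doublet scores) and Gabra2 in oligodendrocytes (0.445 under 1% mitochondrial UMIs, on 14 and 8 UMIs). The cause was not tested. In interneurons Kctd12 ranged from 1.38 to 2.53, Nlgn2 from 1.10 to 1.74 and Gabrd from 0.517 to 0.757, and Gabrg3 in granule neurons from 0.280 to 0.739.

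Over the 154 ratios the value stayed within its counting interval in 141 against genes of like length, in 148 at 1000 genes or more, in 127 with TMM, in 97 in females, in 74 in males, in 79 and 81 with the crossed mice, in 94 after thinning, in 95 of 148 under 1% mitochondrial UMIs, in 149 without the 30% highest doublet scores, in only 24 with UMIs per nucleus, and in 134 of the 141 that a resolution of 1.0 allowed. Within single CA2/CA3 clusters 18 and 11 of 22 did, and within single granule clusters 3 and 9 of 22. A resolution of 1.0 gave no precursor class and so no total. Of 924 alternative levels 198 left their interval, and of 308 shares 300 did without thinning. The 2 crossed pairs of mice, the single granule and CA2/CA3 clusters, the order of the mice, the scaling to genes of like length and the resolution for interneurons were chosen after seeing the data. No paired analysis was possible because each group is 1 library and the labels give no replicate numbers that pair samples. Members under 100 UMIs in a class were not read for a difference.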
